A study of Mus musculus with 8 samples.

Results

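The replication-dependent histone genes were taken as all genes whose symbol in the deposited gene tables begins with Hist1h, Hist2h, Hist3h or Hist4. This rule, which uses the names and no measured value, found 69 identifiers with 68 symbols among the 28001 identifiers of each table (*Hist2h2bb* has 2 identifiers). By the histone class in their symbol, 6 were H1, 19 H2A, 19 H2B, 12 H3 and 13 H4 genes, of which the annotation used here gives 2 as not protein-coding (*Hist1h2al* as a pseudogene and 1 identifier of *Hist2h2bb* as a long non-coding RNA). Their transcripts were counted as unique molecular identifiers (UMIs), which mark each captured molecule once, in 8 single-cell libraries of E11.5 to E16.5 mouse forelimbs.

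Of the libraries, 6 held sorted tdTomato+ mesenchymal progenitors (MPs) and their progeny taken daily from E11.5 to E14.5 and, for E16.5, as a proximal segment (distal stylopod, elbow and proximal zeugopod) and a distal one (distal zeugopod and autopod), and 2 (whole 1 and whole 2) held lineage-negative cells of whole E11.5 limbs, tdTomato+ and tdTomato- alike. The embryos were C57BL/6J and their dams had received 7.5 mg tamoxifen by gavage on embryonic day 10, when Cre driven by the *Hic1* promoter turned on tdTomato for good in the cells that used it. The sorted cells carried *Hic1* CreERT2/CreERT2 and Rosa26 LSL tdTomato/tdTomato, with CreERT2 in both copies of *Hic1*. The whole limb cells carried the same alleles, with no copy number in their labels, so no group was free of the *Hic1* insertion. Forelimbs of several embryos were pooled for each sorted library, and each sorted group is 1 library, so comparisons between stages carry no test. Reagent kit v2 served for sorted cells of E11.5, E12.5 and E13.5, and kit v3 for E14.5 and E16.5, so from E13.5 to E14.5 kit and stage cannot be told apart. The whole limb libraries were taken as v2 from their stage. Levels are given as CPM, the UMIs of a gene divided by all UMIs of the kept cells of a library and scaled to a total of 1000000. Each captured molecule is counted near its 3′ end, so a CPM value is not divided by transcript length.

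The cells kept (3000 or more UMIs and at most 10% mitochondrial UMIs) numbered 3165 at E11.5 to 11109 at E16.5 proximal, 53085 in all, with 31500092 to 234893903 UMIs per library. The E11.5 sorted library stood apart in that 1079 of its 4264 barcodes were below 3000 UMIs, and its family total over all barcodes was 2453 CPM against 2525 CPM over kept cells. Any pair of libraries shared between 0 and 54 barcodes. The family took 0.0493% (E14.5) to 0.253% (E11.5) of the UMIs of a library. Of the 69 identifiers, 64 had a UMI in every library and none lacked one in all, but 39 stayed below 5 CPM in every library, 11 of them below 1 CPM, and 19 reached 10 CPM in at least 1 library.

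Histone proteins package DNA into nucleosomes, each wrapped around a core of H2A, H2B, H3 and H4, while H1 binds the DNA between them. Replication-dependent histone genes lack introns as a rule, lie in clusters and are used in S phase, when new DNA needs new nucleosomes. Their mRNAs typically end in a short stem-loop in place of a poly(A) tail, bound by the stem-loop binding protein SLBP, whereas the 10x 3′ assay primes from stretches of A. The related replication-independent histone genes make polyadenylated mRNA through the cell cycle.

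Because the 3′ end bears on what this assay can capture, the annotated ends were read first. In the GENCODE M21 models (GRCm38, the build named mm10 in the labels), 55 members lie on chromosome 13, 11 on chromosome 3, 2 on chromosome 11 and 1 on chromosome 6. A stem-loop of 6 paired bases around a loop of 4 was found in the models of 46 members (the longest model, or the longest that holds it). The most frequent form, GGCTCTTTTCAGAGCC, stood in 26 of them, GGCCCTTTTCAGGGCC in 7 and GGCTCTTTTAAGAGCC in 6. Of the 46 models, 23 ran on for 100 bases or more past it, of which 16 held AATAAA or ATTAAA there, and 23 ended sooner, of which 1 held such a signal. The other 23 models held no stem-loop, and 2 of those ended within it. The stem-loops of members with high levels, with the following bases up to the model's end or 30 bases in all, are given here 5′ to 3′ with the paired stem in capitals.
*Hist1h2ap*: GGCTCTtttcAGAGCCatc
*Hist1h2ae*: GGCTCTtttcAGAGCCattcacttaattca
*Hist3h2ba*: GGCTCTtttcAGAGCCaccttccaagctca
*Hist3h2a*: GGCTCTtttcAGAGCCacccacaacctcat
*Hist1h1c*: GGCTCTtttcAGAGCCaccactcccactta
*Hist1h1e*: GGCTCTtttcAGAGCCacccacaactctca
*Hist1h3c*: GGCTCTtttaAGAGCCacctaagatgtcat
*Hist1h4i*: GGCCCTttttAGGGCCaccacaaaatcaaa
*Hist1h4d*: GGCCCTtttcAGGGCCactaccttctcact
The model of *Hist1h2ap* ended 3 bases past this structure and that of *Hist1h3c* 74 bases past it. By contrast, *Hist3h2ba* ran on for 169 bases, *Hist1h4i* for 330, *Hist1h4d* for 770, *Hist1h1c* for 840, *Hist1h1e* for 1153 and *Hist3h2a* for 1643. The H1 gene *Hist1h1b* and the H2B gene *Hist1h2bc* had no stem-loop in their models, and that of *Hist1h1a* stopped after 15 of its bases. A model's end is an annotation and was not measured in these libraries.

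Many members share sequence, so it can be uncertain whether a read was counted and for which gene. In 47 members more than 10% of the 50-base words in the last 300 bases also occur in another gene. For *Hist1h2ap* (ENSMUSG00000094777, chr13:21833026-21833507, minus strand) all of these words, 100%, occur elsewhere, with *Hist1h2ao* heading the list of 24 genes that share words with it. The same was true of *Hist2h2aa1* and its neighbour *Hist2h2aa2*, and of *Hist1h1e*, whose last 300 bases overlap the gene *Hist1h2be* on the same strand. *Hist1h1b* (ENSMUSG00000058773, chr13:21779883-21780625, minus strand), *Hist1h1a*, *Hist1h4i*, *Hist1h4d*, *Hist3h2a* and *Hist3h2ba* shared none there. For *Hist1h2ag* the share was 70.1%. Other members named below shared much there too, such as *Hist1h3e* (100%), *Hist1h2af* (72.1%) and *Hist1h2bj* (67.7%). Values of *Hist1h2ap*, *Hist2h2aa1*, *Hist1h1e*, *Hist1h2ag* and such others are therefore those assigned to the gene by the authors' counting.

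The summed level of the family was 2525, 805, 1014 and 493 CPM in the sorted libraries of successive days from E11.5 to E14.5. At E16.5 it was 513 CPM proximally and 1038 CPM distally, and whole 1 and whole 2 had 661 and 619 CPM. The exact Poisson 95% interval at E11.5 ran from 2508 to 2543 CPM. The sorted E11.5 library was the highest, at 4.93 times the E16.5 proximal level and 3.95 times the mean of the whole limb libraries. This ranking rested on *Hist1h2ap*, a core H2A gene, which made up 74.0% of the family at E11.5. Without it the levels were 655, 473, 567, 462, 492 and 947 CPM in the same order of sorted libraries and 597 and 536 CPM in the whole limb libraries, with E16.5 distal the highest. The leading member also changed. It was *Hist1h2ap* in the 3 sorted libraries up to E13.5 (74.0%, 41.2% and 44.1% of the family) and *Hist1h1b*, a linker histone, in the other 5 (20.3% at E14.5 to 40.1% at E16.5 proximal). The H1 class held 7.90% of the family at E11.5 (200 CPM) and 55.3% at E16.5 proximal (284 CPM), so its share changed more than its level. The 5 leading members together held between 52.0% (E14.5) and 86.9% (E11.5) of family UMIs.

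**Figure D1:**
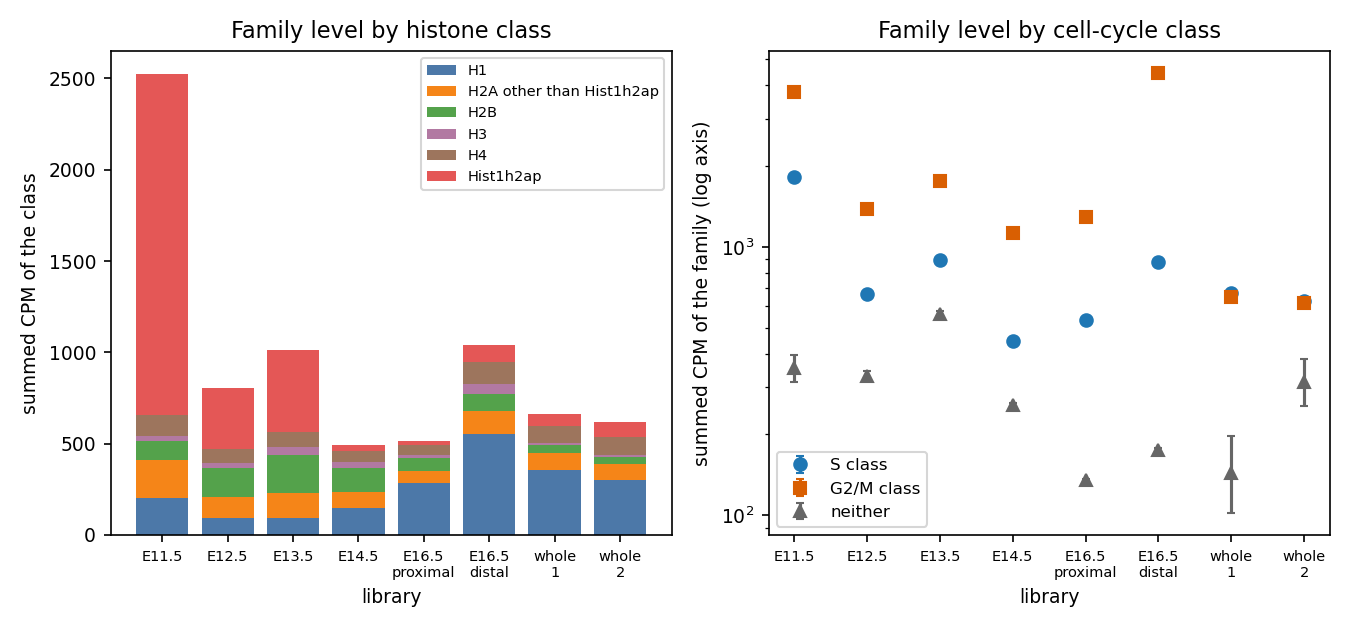
Left, summed CPM of each histone class by library as stacked bars, with *Hist1h2ap* set apart from the other H2A genes, so that a bar's full height is the family total. Right, family total on a log axis in cells of the S class, the G2/M class and neither, with exact Poisson 95% intervals, where *Hist1h2ap* fills most of the E11.5 bar and the G2/M points lie above the S points in the 6 sorted libraries.

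Among the H1 genes, *Hist1h1b* was at 93.7, 36.8, 30.9, 99.8, 206 and 384 CPM in the sorted libraries from E11.5 to E16.5 distal and reached 213 and 179 CPM in whole 1 and whole 2. It was lowest at E12.5 and E13.5 and highest at E16.5 distal, with E16.5 proximal and the whole limb next at similar levels. *Hist1h1e* followed a flatter course of 18.3 (E14.5) to 93.8 CPM (E16.5 distal), and *Hist1h1a* ranged from 5.81 (E12.5) to 36.4 CPM (E16.5 distal). *Hist1h1c* varied least of the 4, from 15.1 to 25.4 CPM, with the sorted E11.5 library at 22.1 and the whole limb at 18.7 and 16.6 CPM. The 4 members hence differed in their courses, although all encode linker histones.

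The H2A and H2B genes encode the dimer partners of the nucleosome core. *Hist1h2ap* stood at 1870, 331, 447 and 30.6 CPM on successive days from E11.5 to E14.5, at 20.7 (proximal) and 91.2 CPM (distal) on E16.5, and at 63.7 and 82.9 CPM in whole 1 and whole 2. The 3 sorted libraries of E11.5 to E13.5 thus exceeded all 5 others, the whole limb libraries among them. *Hist1h2ae* was at 117 CPM at E11.5 and 28.0 to 62.0 CPM elsewhere. *Hist3h2a* and *Hist3h2ba*, which are neighbours on chromosome 11, were both highest at E13.5, at 56.8 and 119 CPM. *Hist3h2ba* stood at 55.8, 103, 119, 62.3, 10.3 and 9.93 CPM across the sorted libraries, against 7.91 and 8.01 CPM in whole 1 and whole 2. It was therefore higher in sorted cells of E11.5 to E14.5 than in both E16.5 segments and the E11.5 whole limb. *Hist1h2bc* ranged from 15.7 (whole 2) to 49.0 CPM (E13.5), and the next H2B genes, *Hist1h2bj* and *Hist2h2bb* (its higher identifier), reached 7.40 and 12.5 CPM, both at E16.5 distal.

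H3 genes were low throughout. The highest, *Hist1h3c*, reached 21.4 CPM at E16.5 distal and was at 3.68 to 10.4 CPM in the other libraries, while *Hist1h3e*, *Hist1h3a* and *Hist1h3i* peaked at 10.5, 5.57 and 5.30 CPM. Of the H4 genes, *Hist1h4i* ranged from 15.5 (E16.5 distal) to 56.3 CPM (E11.5) and *Hist1h4d* from 15.2 (E14.5) to 74.1 CPM (E16.5 distal). Their order was thus opposite in the sorted E11.5 and E16.5 distal libraries. *Hist4h4* peaked at 9.98 CPM at E13.5 and *Hist1h4h* at 13.3 CPM at E16.5 distal.

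**Figure D2:**
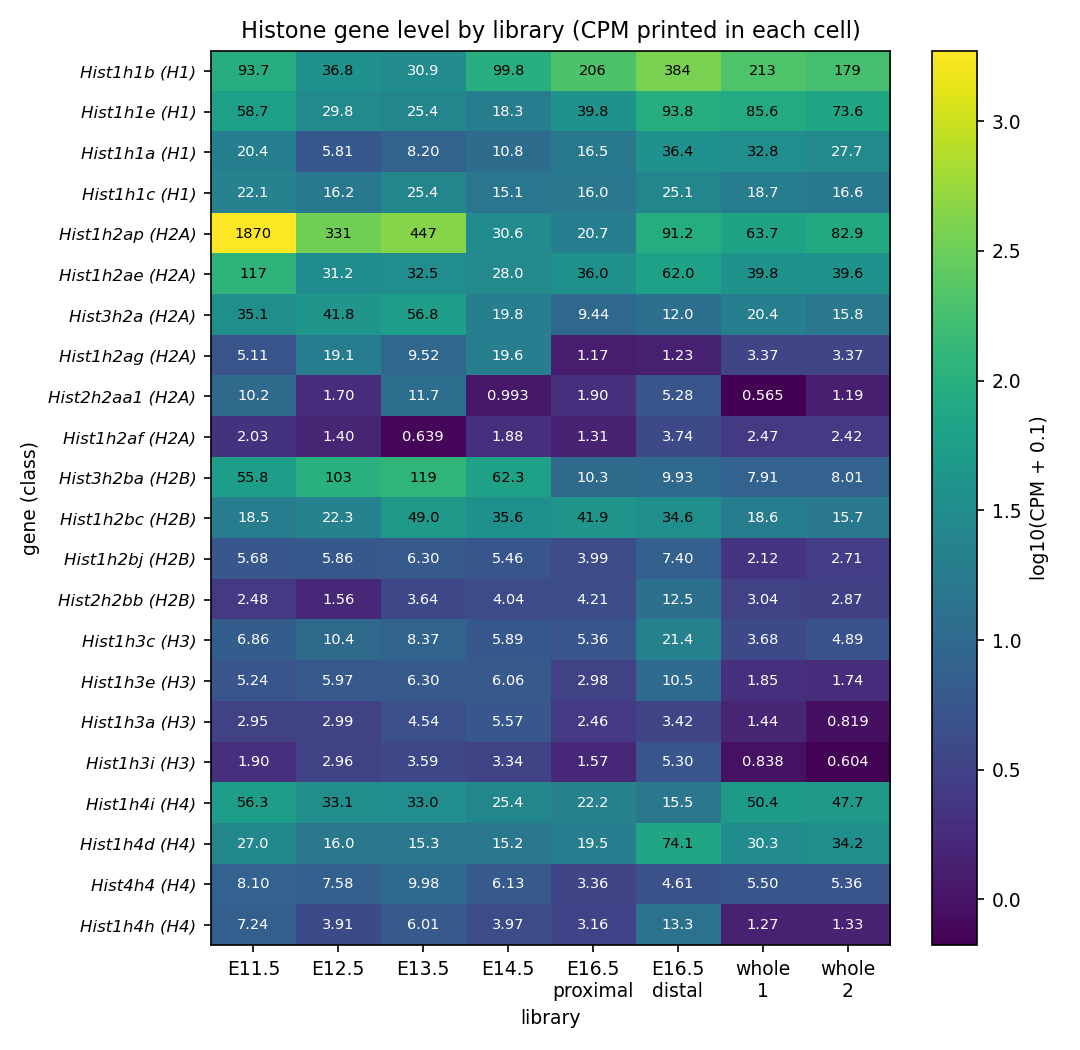
Level of the 4 most abundant members of each histone class and of every departing member (rows) in the 8 libraries (columns), with CPM printed in each cell and the colour on a log10(CPM + 0.1) scale. *Hist1h2ap* is the brightest cell at E11.5 with 1870 CPM, and *Hist1h1b* is brightest at E16.5 distal with 384 CPM.

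Single members that left the family's course were picked by size, as a log2 ratio of CPM + 1 at least 2 away from the median ratio of those members whose higher level of the pair was 10 CPM or more. This gave 10 departures between libraries, by 5 genes, of which 5 departures were lost with a pseudocount of 5 and 5 at 20 CPM or more. Those of *Hist2h2aa1* and the E12.5 one of *Hist1h2ag* were lost under both, that of *Hist1h1b* with the pseudocount and the E16.5 one of *Hist1h2ag* at 20 CPM, while those of *Hist1h2ap* and *Hist3h2ba* remained. At E12.5 against E11.5 (14 members, median -0.73, with 0.457% of the 8753 genes at 10 CPM or more past the same limit around their own median), *Hist1h2ag* departed by 2.45, from 5.11 to 19.1 CPM. At E13.5 against E12.5 (13 members, median 0.06, 0.470% of such genes), *Hist2h2aa1* departed by 2.18, from 1.70 to 11.7 CPM. At E14.5 against E13.5, where the kit changes (13 members, median -0.45, 1.71% of such genes), *Hist2h2aa1* returned to 0.993 CPM and departed by -2.22. In the same step *Hist1h2ap* departed by -3.38 (447 to 30.6 CPM) and *Hist1h1b* by 2.11 (30.9 to 99.8 CPM), so the most abundant members moved in opposite directions. The ratio of *Hist1h2ap* to *Hist1h1b* was 8.99 or more in each sorted v2 library, 0.307, 0.101 and 0.238 in the v3 libraries, and 0.299 and 0.464 in whole 1 and whole 2.

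At E16.5 proximal against E14.5, both v3 (12 members, median 0.15, 3.58% of genes at 10 CPM or more), *Hist3h2ba* departed by -2.64 and *Hist1h2ag* by -3.40 (19.6 to 1.17 CPM). No member departed between the E16.5 segments, where 2.50% of such genes did. Of the 17 members at 10 CPM or more in either segment, 7 reached that level distally alone and 1 proximally alone, so their median of 1.21 rests in part on the filter. Of the 9 members at 10 CPM or more in both, 7 were higher distally, with a median of 0.90 beside 0.11 over such genes. Each segment is 1 library, and the file headers name different Cell Ranger versions for them, so segment, library and any difference in counting version cannot be told apart. *Hist1h4i*, *Hist1h2bc* and *Hist3h2ba*, named after their values were seen, were the 3 of the 17 that were not higher distally. For sorted E11.5 cells against the whole limb mean (12 members, median 0.25, 1.43% of such genes), *Hist1h2ap* departed by 4.40, *Hist3h2ba* by 2.41 and *Hist2h2aa1* by 2.32. In S-class cells alone, 9 of the 10 departures remained, *Hist2h2aa1* at E11.5 being the exception.

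**Figure D3:**
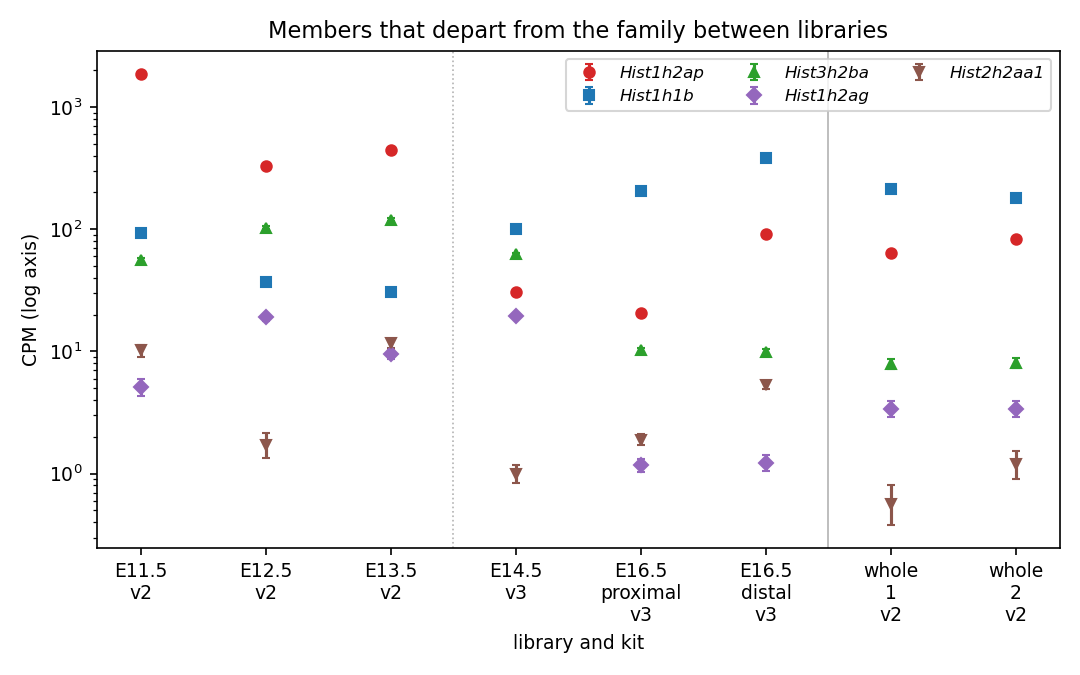
CPM of the 5 departing members on a log axis in each library, with the reagent kit under its name and exact Poisson 95% intervals that cover counting error only. The dotted line marks the change from v2 to v3 and the solid line sets off the whole limb libraries, where *Hist1h2ap* is at 63.7 and 82.9 CPM against 1870 CPM in the sorted E11.5 library.

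To ask how histone genes of tdTomato+ MPs differ from those of the whole limb at the same stage, UMIs summed over cells outside muscle, epithelial, endothelial, immune, erythroid and glial classes were tested with edgeR's quasi-likelihood test (1 sorted against 2 whole limb libraries). The lone sorted library was assumed to vary like the whole limb libraries, so p-values measure their spread alone. Of 63 members tested, 33 were higher and 5 lower in sorted cells at an adjusted p of 0.05. Over all 15112 genes tested, 27.1% were higher and 26.5% lower. DESeq2 called 13 higher and 4 lower, beside 13.4% and 18.9% of all genes. Without the filter on low counts, 13 of 67 were higher and 3 lower, beside 10.5% and 11.1%. Those named here reached 10 CPM in at least the higher group. *Hist1h2ap* was at 1870 CPM in sorted cells against 65.4 and 84.0 CPM, a log2 fold change of 4.46 ± 0.12 (SE). Its count depends on how the counting treated shared reads. No counting version is given for the whole limb libraries, so sorting, library and any difference in counting version cannot be told apart. *Hist2h2aa1* (3.37 ± 0.20), *Hist3h2ba* (2.63 ± 0.12), *Hist1h2ae* (1.35 ± 0.10) and *Hist3h2a* (0.73 ± 0.12) were also higher. By class, 8 of 17 H2A, 8 of 16 H2B, 8 of 12 H3, 9 of 13 H4 and none of 5 H1 genes tested were higher, most of them under 10 CPM, and 3 H1, 1 H2A and 1 H4 gene were lower. *Hist2h2aa1* (10.2 CPM against 0.514 and 1.21) and *Hist3h2ba* (55.8 CPM against 7.92 and 7.99) reached that level through the sorted library alone. Lower were 3 linker histone genes, *Hist1h1b* (93.7 CPM against 213 and 179, -1.25 ± 0.10), *Hist1h1a* (-0.78 ± 0.13) and *Hist1h1e* (-0.63 ± 0.10), and the H4 gene *Hist1h4d* (-0.47 ± 0.13). *Hist1h1c*, *Hist1h2bc* and *Hist1h4i* gave 0.15 ± 0.13, -0.08 ± 0.13 and -0.00 ± 0.11 and passed no threshold. Restricted to S-class cells, *Hist1h2ap* and *Hist1h1b* gave 3.95 ± 0.11 and -1.67 ± 0.11. Of 58 members tested in S-class cells 20 were higher and 10 lower, beside 26.2% and 25.7% of all genes. In G2/M-class cells, an alternative chosen after the data had been seen, both gave 5.12 ± 0.17 and -0.58 ± 0.11 in that order. There 32 of 56 members were higher and 1 lower, beside 19.2% and 19.0% of all genes.

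Cells were then placed in an S class, a G2/M class or neither by the number of listed S phase (41) and G2/M (40) genes with a UMI after thinning to 3000 UMIs. A listed G2/M gene, *Pimreg*, stands in the files under its older symbol *Fam64a*, so it was left out of these counts and was not removed before the clustering described later. No member is in either list. These classes are cuts through a range and not measured phases. The S class held 38.7% (E16.5 distal) to 65.6% (E13.5) of the cells of a library, so it may hold cells of other phases. Levels by class therefore do not show in which phase a transcript peaks. Between 1.96% (whole 1) and 37.8% (E16.5 distal) of cells had 2 or 3 genes of their larger list, on either side of the limit of 3. The share of cells in neither class was 3.7%, 14.8%, 18.2% and 37.4% from E11.5 to E14.5, and 43.2% (proximal) and 50.4% (distal) at E16.5. It was 0.805% and 0.933% in the whole limb, which leaves only 44 and 53 cells there. The family total was 1822, 3759 and 353 CPM in S, G2/M and neither cells at E11.5 and 881, 4424 and 175 CPM at E16.5 distal. In whole 1 it was 674, 650 and 144 CPM and in whole 2 626, 615 and 313 CPM, so G2/M cells did not exceed S cells in either.

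Within libraries (8 libraries as blocks, edgeR), 38 of 56 tested members were higher and 1 lower in S than in neither cells, beside 8.92% and 5.77% of all 14449 genes. In G2/M against neither cells 51 were higher and none lower, beside 17.2% and 19.1% of all genes. DESeq2 called none lower in G2/M either, and in the main test 53 members had an unadjusted p under 0.05, beside 45.7% of all genes. The largest rise among members at 10 CPM or more was that of *Hist1h1b*, at a log2 fold change of 5.04 ± 0.39 in S and 6.09 ± 0.39 in G2/M cells (adjusted p = 1.1e-08 and 2.9e-10). Its level was 25.9 to 339 CPM in S cells against 1.84 to 12.2 CPM in neither cells. *Hist1h1a* (4.09 ± 0.40) and *Hist1h2ap* (3.72 ± 0.35) followed, and the low H2A gene *Hist1h2af*, at 3.74 CPM or less, gave 5.54 ± 0.54, a fit against 0 to 0.184 CPM in neither cells that depends on the prior count. These 4 genes lay more than 2 above the median of the tested members (1.44). By class, 4 of 5 H1, 10 of 13 H2A, 10 of 15 H2B, 9 of 11 H3 and 5 of 12 H4 genes rose in S, with medians of 3.02, 2.43, 1.06, 1.58 and 0.92.

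A few abundant members did not share this course. *Hist1h2bc* lay more than 2 below the median, at -0.63 ± 0.22 (adjusted p = 0.0585), and was lower in S than in neither cells in 8 of 8 libraries, for example 27.2 against 48.6 CPM at E16.5 proximal and 34.5 against 51.8 CPM at E13.5. It passed the test in sorted libraries alone (-0.71 ± 0.10, adjusted p = 7.6e-05). *Hist3h2ba* was the 1 member lower in S cells (-0.47 ± 0.14, adjusted p = 0.0276). That call was lost in sorted libraries alone (-0.45 ± 0.16, adjusted p = 0.0651), and no member was lower when E11.5, E12.5, E13.5 or E14.5 was left out. When the richest cells were set against the poorest by S phase genes, a comparison chosen after the data had been seen, *Hist3h2ba* (-0.74 ± 0.15, adjusted p = 0.00349 with edgeR) and *Hist1h2bc* (-0.95 ± 0.14, adjusted p = 6.4e-04) were both lower. Its neighbour *Hist3h2a* gave -0.37 ± 0.13 (adjusted p = 0.064), and the H1 gene *Hist1h1c* gave 0.08 ± 0.36 (adjusted p = 0.939) in S cells but rose by 1.21 ± 0.35 in G2/M cells. Of these, *Hist3h2ba*, *Hist3h2a* and *Hist1h1c* have models that run on past the stem-loop, and *Hist1h2bc* has none. Over all tested members, models ending soon after the stem-loop had a median S change of 1.58 (19 members, 13 higher), those running on 1.21 (21 members, 13 higher) and those without a stem-loop 1.86 (16 members, 12 higher). The groups overlapped widely. They follow annotated ends, which were not measured here, and a model without a stem-loop may stop short of it. No member passed the test of a kit difference in its S change, by edgeR or DESeq2 (0 of 56 at an adjusted p of 0.05, beside 0.125% of all genes by edgeR). At an unadjusted p under 0.05 there were 5 with edgeR and 10 with DESeq2, beside 9.09% and 7.09% of all genes. In sorted libraries alone edgeR gave 13 of 62 members, beside 1102 of 14944 genes, and again none at an adjusted p of 0.05. The median difference there was 0.635 for members and -0.032 for all genes. Kit and stage cannot be told apart in this term. For *Hist1h2ap* the kit difference was 0.90 ± 0.51.

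**Figure D4:**
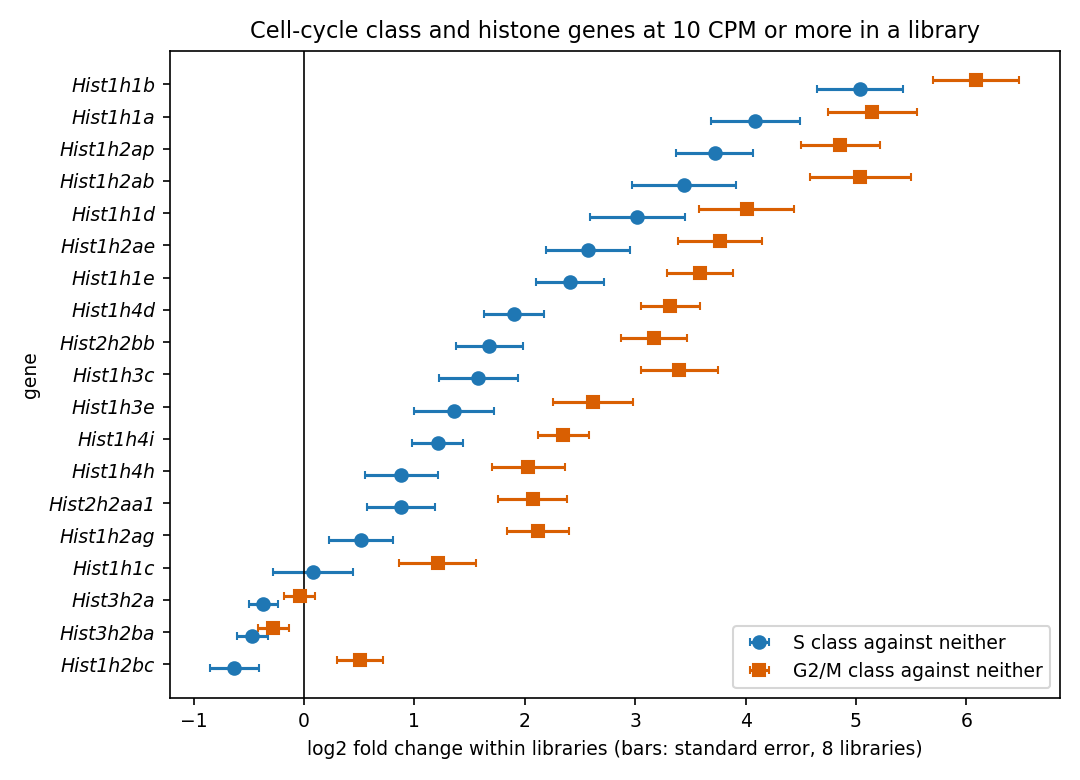
Log2 fold change of S-class (circles) and G2/M-class cells (squares) against neither cells for the 19 members at 10 CPM or more in a library, with standard errors from the edgeR fit over 8 libraries. *Hist1h1b* lies at 5.04 and 6.09, while *Hist1h2bc*, *Hist3h2ba* and *Hist3h2a* lie at -0.63, -0.47 and -0.37 in S cells.

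Many core histone genes lie head to head around a shared promoter. Among the members 13 such pairs were found, with 175 to 659 bases between the 5′ ends, and 12 of them joined an H2A and an H2B gene. The partners were often read at unequal levels. At E11.5 *Hist1h2ap* was at 1870 CPM, while its partner *Hist1h2br*, 235 bases away, had no UMI, which allows up to 0.117 CPM by counting error alone. Of the 50-base words of *Hist1h2br*, 88.5% occur in another gene, and 20.3% of those in its last 300 bases. Levels of both partners thus depend on how the counting treated shared reads, which may have been left out. The pair of *Hist1h2ae* and *Hist1h2bg* was at 117 and 1.87 CPM, and in that of *Hist1h2bc* and *Hist1h2ac* the H2B gene led with 18.5 against 1.62 CPM. *Hist1h2ag* and *Hist1h2bj* were nearly level at 5.11 and 5.68 CPM. *Hist1h2ag* and *Hist1h2bk*, which are not a pair of this kind, kept a ratio between 1.68 and 2.68 in all 8 libraries, although *Hist1h2ag* itself ranged from 1.17 to 19.6 CPM. This pair was chosen after its values had been seen.

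Promoters (250 bases before to 50 after the gene start, RefSeq, GRCm38.p6) were matched for 63 members. Searched on both strands, the octamer ATTTGCAT, the sequence bound by Oct-1, stood in 23.8% of them against 1.74% of all 32851 promoters. It was found in 7 of 18 H2A and 8 of 17 H2B promoters and in no H1, H3 or H4 promoter. CCAAT stood in 85.7% against 37.4% of all, in every H1, H2A, H2B and H3 promoter matched but in 3 of 12 H4 promoters, and TATAAA in 55.6% against 13.6%. The promoters of the leading H1, H2A and H4 genes and of the H2A gene *Hist1h2ae*, which holds the octamer, are shown 5′ to 3′ in the direction of the gene, with matches on either strand in capitals.
*Hist1h1b*, chr13:21780576-21780875, minus strand: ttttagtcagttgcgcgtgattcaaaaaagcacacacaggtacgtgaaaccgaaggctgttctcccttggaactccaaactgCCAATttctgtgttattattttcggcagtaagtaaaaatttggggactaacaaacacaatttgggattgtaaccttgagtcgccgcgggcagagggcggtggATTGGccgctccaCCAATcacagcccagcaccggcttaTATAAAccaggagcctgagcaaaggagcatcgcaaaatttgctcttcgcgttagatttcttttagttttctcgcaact
*Hist1h2ap*, chr13:21833426-21833725, minus strand: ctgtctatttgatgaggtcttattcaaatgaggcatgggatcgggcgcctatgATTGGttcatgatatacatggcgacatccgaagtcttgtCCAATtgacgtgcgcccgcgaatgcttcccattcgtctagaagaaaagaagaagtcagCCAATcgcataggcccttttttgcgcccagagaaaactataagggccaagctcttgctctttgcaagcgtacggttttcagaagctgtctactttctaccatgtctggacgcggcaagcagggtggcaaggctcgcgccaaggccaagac
*Hist1h2ae*, chr13:23571171-23571470, minus strand: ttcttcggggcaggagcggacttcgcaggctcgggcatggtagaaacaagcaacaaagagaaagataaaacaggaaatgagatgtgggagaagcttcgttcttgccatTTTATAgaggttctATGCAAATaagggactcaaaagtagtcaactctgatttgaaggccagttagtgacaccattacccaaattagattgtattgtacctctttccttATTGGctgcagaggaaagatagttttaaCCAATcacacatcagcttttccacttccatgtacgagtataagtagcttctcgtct
*Hist1h4i*, chr13:22041313-22041612, minus strand: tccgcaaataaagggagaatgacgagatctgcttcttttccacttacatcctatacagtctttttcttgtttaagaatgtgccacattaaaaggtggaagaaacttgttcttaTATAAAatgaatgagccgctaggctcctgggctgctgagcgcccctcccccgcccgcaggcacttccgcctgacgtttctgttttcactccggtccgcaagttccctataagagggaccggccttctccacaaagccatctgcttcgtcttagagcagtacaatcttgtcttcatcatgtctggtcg
*Hist1h1b* and *Hist1h2ap* both hold CCAAT and lack the octamer, and the *Hist1h4i* promoter lacks CCAAT. A match is a description of letters and was not tested as a site.

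By cell class, the family was uneven among all cells of a class and spread less among its cells of neither cell-cycle class. Cells of each library were clustered without the members and the listed cell-cycle genes, and clusters were named from fixed markers, with "-like" since the names were rebuilt here. Only classes whose family level held within 1.5 times at the other cluster resolutions that named them are ranked. Distal joint-like cells were named at resolution 2 but not at 0.5. In the proximal E16.5 segment the family was at 1022 CPM in dermal fibroblast-like, 757 in tenocyte-like, 737 in chondrocyte-like, 586 in pericyte-like, 172 in epithelial-like and 130 CPM in fibroblast-like cells. In the distal segment it was at 2292 CPM in dermal fibroblast-like, 916 in epithelial-like and 807 in pericyte-like cells, and at 203, 174 and 166 CPM in fibroblast-like, distal limb mesenchyme-like and joint-like cells. Dermal fibroblast-like cells were the highest ranked class and fibroblast-like cells were among the lower ones in both segments. In neither-class cells of the ranked classes the family was at 112 to 211 CPM proximally and 138 to 229 CPM distally. In G2/M cells of the proximal segment it ran from 282 CPM in fibroblast-like to 2450 CPM in chondrocyte-like cells. *Hist1h2ap* in dermal fibroblast-like cells was at 49.0 CPM proximally and 212 CPM distally.

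Some clusters were led by proliferation genes that had not been removed before clustering, such as *Esco2*, which joins sister chromatids, and the mitotic kinesin gene *Kif4*. Such a cluster held 321 of the 1649 distal dermal fibroblast-like cells, 473 of the 978 distal tenocyte-like cells, 567 of the 1616 distal limb mesenchyme-like cells at E14.5 and 736 of the 2127 muscle fibre-like cells of the proximal segment. Each of these 4 classes was above the family level of its library, and the part of such clusters in the ranking was not tested. Other classes held such clusters too, with 432 of the 1077 chondrocyte-like cells at E13.5 as an example. In the proximal dermal fibroblast-like class, a cluster of 333 of the 1385 cells had *Ska1* and *Fbxo5* among its leading genes. The proximal muscle fibre-like class held its level across resolutions, at 829 CPM at resolution 1, 597 at 0.5 and 997 at 2, and would stand next to dermal fibroblast-like cells. It was left out of the plot and the ranking after its values had been seen. Of its 2127 cells, 1005 were in the S class and 573 in the G2/M class. Its larger cluster, of 1391 cells, had *Alx1* ahead of muscle genes such as *Actc1*. The paper reports that tdTomato+ cells gave rise to no myogenic cells. The name thus follows markers alone, and whether these are muscle cells was not tested. The distal tenocyte-like class went from 3284 CPM to 1177 CPM at resolution 2 and is not ranked, nor are the chondrocyte-like cells of the sorted E11.5, E12.5, E14.5 and E16.5 distal libraries. At E11.5 in the whole limb, distal limb mesenchyme-like cells (812 and 765 CPM) were above myogenic-like (607 and 578), proximal limb mesenchyme-like (546 and 526) and chondrocyte-like cells (388 and 433) in both libraries. Each class is 1 value per library, so no test was made.

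**Figure D5:**
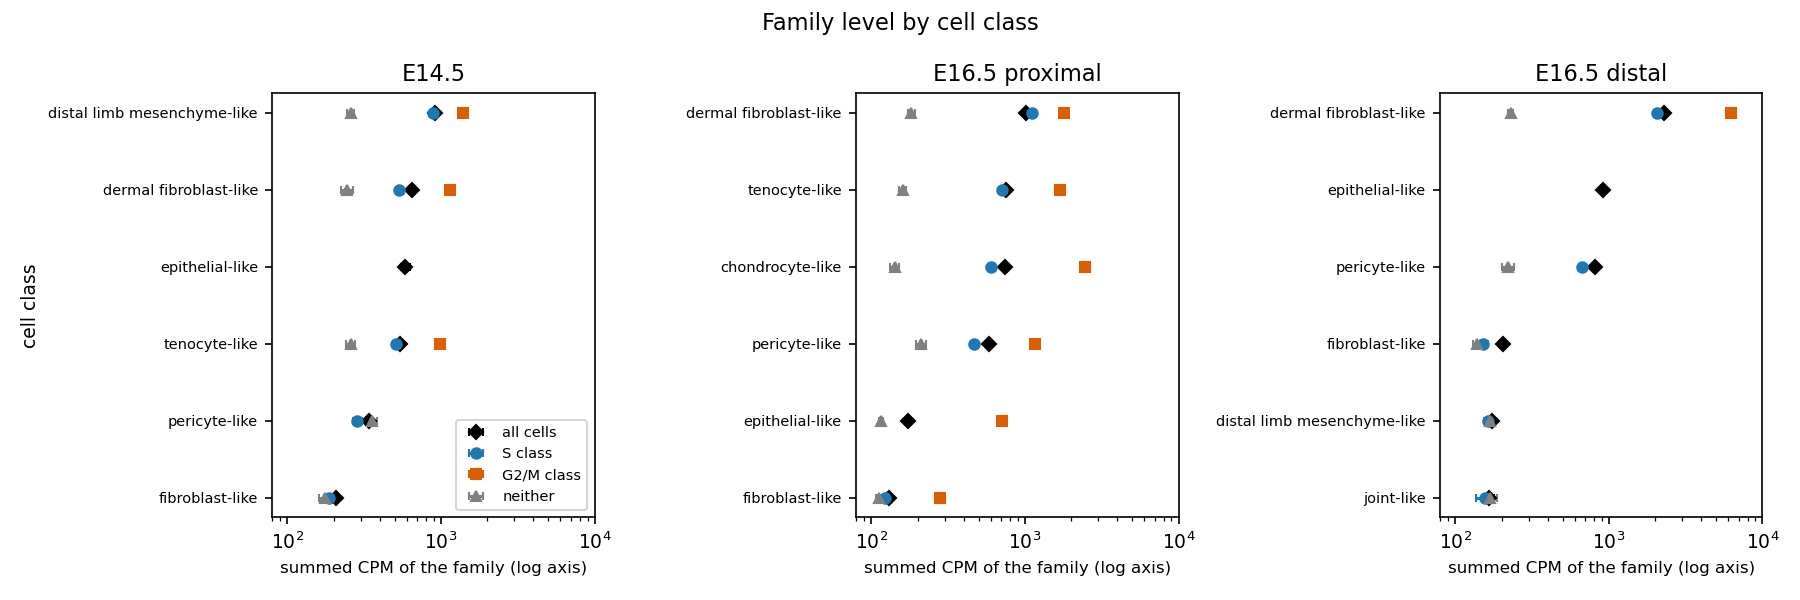
Family total in CPM (log axis) by cell class in the 3 v3 libraries, without the muscle fibre-like class, for all cells of a class and for its S-class, G2/M-class and neither cells where these numbered 50 or more, with exact Poisson 95% intervals. Dermal fibroblast-like cells lie at 1022 CPM at E16.5 proximal and 2292 CPM at E16.5 distal, while neither-class cells lie between 112 and 229 CPM in both E16.5 panels.

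Genes that make, process and carry these histones were read in the same tests. Of 24 listed supply genes 23 were tested, and 12 rose and none fell in S cells, beside 8.92% and 5.77% of all genes (median 0.34 against -0.02 over all genes). In G2/M cells 17 rose and 2 fell, beside 17.2% and 19.1%. *Asf1b*, a chaperone of H3 and H4, rose by 3.71 ± 0.23 in S cells, *Chaf1b*, a subunit of chromatin assembly factor 1, by 2.49 ± 0.23, and *Slbp* by 0.93 ± 0.11. Any supply or replication-independent histone gene that also stands in the S phase or G2/M list would rise by the way the classes were set. No such gene was taken out of the counts given here. The counts and rises by cell-cycle class are therefore descriptions and not an independent test. Against the whole limb, 2 supply genes were higher and 16 lower in sorted E11.5 cells, beside 27.1% and 26.5% of all genes (median -0.40 against 0.014). The lower ones included *Slbp* (-0.58 ± 0.12) and the H1 and H3 chaperone gene *Nasp* (-1.17 ± 0.13). Of 11 replication-independent histone genes, 4 rose in S cells and 9 in G2/M cells, with none lower. *H2afz*, which encodes the variant H2A.Z, rose by 0.78 ± 0.15 in S cells, and *H3f3a*, 1 of the genes for H3.3, gave 0.02 ± 0.06 (adjusted p = 0.898). In sorted E11.5 cells 1 of the 11 was higher (*H1f0*, 0.90 ± 0.11) and 6 were lower, including *H2afz* (-1.05 ± 0.17).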

How the data were processed

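The deposited values are raw UMI counts of each gene in each barcode. The authors made these counts with the Cell Ranger count pipeline on a modified mm10 reference (3.0.2 for 5 sorted libraries, 6.0.1 for E16.5 distal per the file headers; no version is given in the whole limb headers). The study's reporting summary names another single version, so the version behind each library is uncertain. The annotation release is not given in the sources used here. Cells with at least 3000 UMIs and at most 10% mitochondrial UMIs were kept. No doublet caller was run. Cells over 3 times their library's median UMIs were left out as an alternative.

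UMIs were summed per library, and per cell-cycle class, and scaled to CPM with exact Poisson 95% intervals, which cover counting error only. Tests across all genes used edgeR 4.0.16 (quasi-likelihood, TMM, filterByExpr, Benjamini-Hochberg, R 4.3.3), with DESeq2 1.42.0 as an alternative. The standard error was derived from the log2 fold change and its p. Tested on simulated data with 200 genes changed 4-fold, edgeR called 174 with 6 false calls for sorted against whole limb (15112 genes) and 197 with 25 false calls for S against neither (14449 genes). The simulated counts were drawn from the fitted means and spread, so they hold no shift particular to the lone sorted library. Their false calls thus do not measure those of the real sorted against whole limb test. Clustering used scanpy 1.11.5 and leidenalg 0.10.2 (resolution 1) within each library. Stem-loops, shared 50-base words and coordinates come from GENCODE M21 transcripts, and 2 members with other identifiers there (*Hist1h2bh*, *Hist1h2bm*) were matched by symbol. The files name no separate animals for whole 1 and whole 2, so p-values measure the spread between these samples, which may be technical.

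Named members are the 4 with the highest mean CPM in each class, every departing member, and up to 6 per direction past the sorted against whole limb test at 10 CPM or more. Up to 4 genes are named from each other list. The members, lists and tests were chosen with earlier results of these data known.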

Additional observations from a re-analysis of the deposited data

How the results depend on the processing

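For sorted against whole limb at E11.5, 38 members were called in the main test, 17 with DESeq2 and 16 with no filter on low counts, and 2 in neither-class cells, where only 2 members could be tested. The log2 family level of E16.5 proximal against E11.5, -2.30 as reported, was -2.26 over all barcodes, -2.18 outside epithelial-like clusters, -1.77 in S-class cells, -0.41 without *Hist1h2ap*, -2.19 on UMIs without haemoglobin, mitochondrial and ribosomal protein genes, and -2.26 without cells over 3 times the median UMIs. Whole limb against sorted E11.5 (-1.98) became -1.87 with cells thinned to 3000 UMIs, -1.49 in S-class cells and -0.21 without *Hist1h2ap*, and without either whole limb replicate it ranged from -2.03 to -1.93. E16.5 distal against proximal (1.02) became 0.88 thinned, 0.90 outside epithelial-like clusters, 0.72 in S-class cells, 1.09 without *Hist1h1b*, 0.98 on the reduced UMIs and 0.95 without the deepest cells. E14.5 against E13.5 (-1.04) became -1.0 in S-class cells, -0.29 without *Hist1h2ap* and -0.98 on the reduced UMIs. Departures numbered 10 as reported, 24 at a limit of 1 (3.04% to 11.6% of genes by step), 5 with a pseudocount of 5 (0.160% to 2.23%) and 5 at 20 CPM (0.379% to 3.29%). Chondrocyte-like cells were above their library's family level in 3 of 8 libraries at resolution 1, in 2 at resolution 0.5 and in 6 at resolution 2, with the log2 difference at E11.5 going from -2.94 to 0.31, at E14.5 from -0.11 to 0.02 and at E16.5 distal from -2.68 to 1.38 at resolution 2, and at E12.5 from 0.68 to -1.37 at resolution 0.5. Apart from the calls in neither cells, the cause of these changes was not tested. The family comparisons between libraries kept their direction under each alternative run. Leaving out 1 library at a time gave 33 to 40 calls in S against neither (11.2% to 15% of all genes) and 47 to 55 in G2/M against neither (31.1% to 38.1%). Leaving out cells over 3 times the median, comparing G2/M cells alone, the richest against the poorest cells by S phase genes, and the G2/M leave-one-out and size factors were added after the data had been seen.

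No paired analysis was possible because the sorted libraries carry no replicate number that the whole limb libraries share (cell-cycle classes were compared within libraries), and for sorted against whole limb, without either whole limb replicate no residual degree of freedom is left for a test. Stage and kit cannot be told apart from E13.5 to E14.5, and stage and library cannot be told apart in any step between stages. Members below 10 CPM rest on few UMIs, and whole limb neither cells number only 44 and 53.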
